A study of Mus musculus with 5 samples.

Results

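Potassium channels of the inward-rectifier (Kcnj), two-pore (Kcnk), small and intermediate conductance calcium-activated (Kcnn), large conductance calcium-activated (BK; Kcnma1 with its Kcnmb beta subunits) and sodium-activated (Kcnt, with Kcnu1) families were examined in RNA sequencing data from aged mouse brain. Members were all protein-coding genes with a symbol of these families in the GENCODE M21 annotation, which gave 41 of the 47729 genes in the count table. They comprised 15 Kcnj, 14 Kcnk, 4 Kcnn, 1 Kcnma1, 4 Kcnmb and 3 Kcnt or Kcnu genes. Total RNA came from the brain of 5 males of the inbred laboratory strain C57BL/6, each 30 months old, with no treatment or allele given in the labels. The mice form a single group and are called mice 7, 8, 9, 10 and 11 after the numbers in their labels. No younger mice, females or other tissues were analysed here, so levels describe old male brain and carry no comparison with age, and the labels do not say which part of the brain was taken.

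These channels set the resting membrane potential and shape how cells return to it. Inward rectifiers pass potassium more readily into the cell than out of it; some are held open in neurons by G protein beta-gamma subunits, some are closed by ATP, and those of astrocytes take up the potassium that active neurons release. Two-pore channels carry the background leak of potassium, calcium-activated channels open after calcium entry and follow the action potential with a hyperpolarization, and sodium-activated channels open as sodium accumulates.

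The libraries held from 15392006 to 18723390 counts, and the 41 genes took from 0.135% to 0.148% of them. The library of mouse 11 stood apart. Across 16264 genes, the correlation of GC content (of the longest annotated transcript) with the deviation of log2 CPM (counts scaled to the size of the library) from the mean of the 5 mice was 0.64 in mouse 11, against -0.41 in mouse 7 and values between -0.30 and -0.00 in mice 8, 9 and 10. Several means and ratios that rest on mouse 11 are therefore given with and without it, and the other means, sums and ratios include it. Levels below are RPKM, counts scaled by gene length and by the total count of the library, recomputed from the deposited counts. The labels do not say how the brains were handled, so differences between these samples may be technical in part. For pairs of genes or gene sums, p-values ask only whether the same side is higher across these samples. For single genes, they ask whether a gene varies more than genes of like level. In bulk tissue, fewer cells of a type and less RNA per cell cannot be told apart.

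Of the 41 genes, 36 had counts in every library, 2 in some and 3 in none. The mean level was at least 1 RPKM for 28 genes, at least 5 RPKM for 15 and at least 10 RPKM for 10. With the exon lengths of the M21 annotation these counts were 27, 12 and 7. The 5 most abundant genes held 53.5% of the summed mean level of 338.9 RPKM, and the 12 most abundant held 82.9%. In order of mean level, the highest were Kcnj10, Kcnk1, Kcnj4, Kcnj3 and Kcnk9, so 3 inward rectifiers and 2 two-pore channels led. With the exon lengths of M21 in place of those implied by the deposited RPKM, Kcnk9 averaged 2.04 RPKM and ranked 22, Kcnt1 took its place, and the leading 5 genes held 61.1%. The bases over which reads were counted are not given. If they were those of the deposited lengths, longer M21 lengths understate the level, here and in every M21 value below. Inward rectifiers summed to 174.1 ± 13.4 RPKM (SD, n = 5) and made up 51.4% ± 0.893 of the summed level. Two-pore channels summed to 106.6 ± 13.4 RPKM and made up 31.4% ± 1.96. The sodium-activated group reached 22.9 ± 2.15 RPKM, the BK pore 18.1 ± 4.66 RPKM, the small and intermediate conductance channels 12.3 ± 1.07 RPKM and the BK beta subunits 4.95 ± 0.277 RPKM. These sums rank gene groups of different size and depend on the gene lengths used. With the exon lengths of M21 the two-pore channels summed to 84.8 RPKM and the BK pore to 6.95 RPKM.

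**Figure D1:**
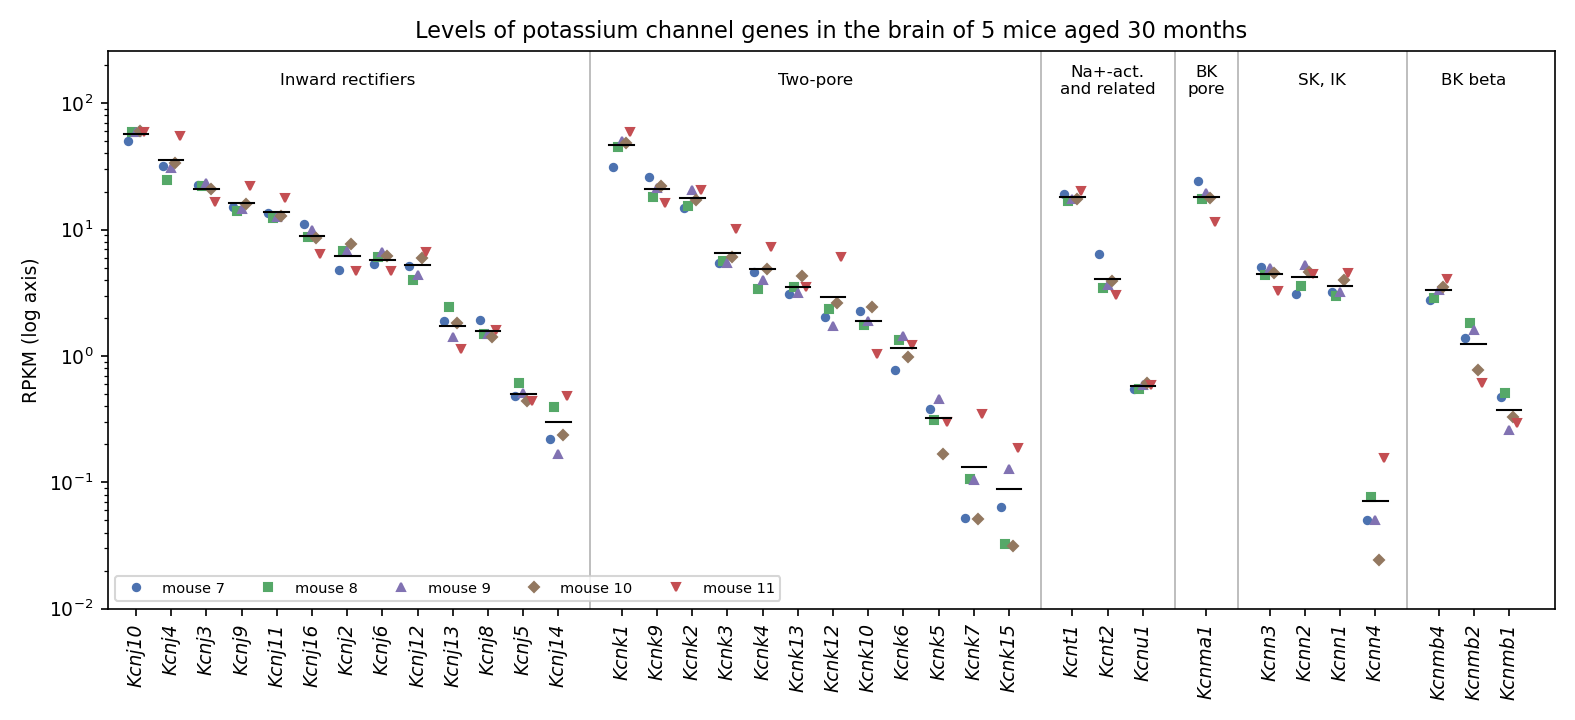
Level of each gene in RPKM (log axis) in the 5 mice (1 marker per mouse), grouped by channel family, with the mean as a black line. Values of 0 cannot be drawn on a log axis, so Kcnk18 and Kcnmb3 (counts in some libraries) and Kcnj1, Kcnj15 and Kcnk16 (no counts) are left out. Kcnj10 and Kcnk1 are the highest genes of the most abundant families, and mouse 11 is the highest for Kcnj4, Kcnk3 and Kcnk12 and the lowest for Kcnma1.

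For comparison, 40 genes for voltage-gated potassium channel alpha subunits, the channels that open on depolarization, were summed in the same way. The 41 channel genes summed to 321.4, 314.7, 341.1, 343.3 and 374.2 RPKM in mice 7 to 11, and the voltage-gated genes averaged 478.1 ± 19.6 RPKM. The log2 ratio of the 41 genes to the voltage-gated genes was -0.50 ± 0.05 (SD, n = 5), and it was below 0 in 5 of 5 mice. A permutation test that flips the sign of each mouse (exact, two-sided) gave p = 0.0625, the smallest value that 5 mice allow.

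Promoter sequences of 6 of these genes are shown because they represent the most abundant gene, genes at both ends of the mouse 11 pattern described further on, and a gene without counts. Kcnj10 was the most abundant member. Kcnk12 and Kcnj4 had the largest positive deviations in mouse 11, and Kcnn3 and Kcnj13 the largest negative ones, among tested genes at 1 RPKM or more with 1 start site and upstream bases outside annotated exons. Kcnk16 had no counts. Each sequence holds the 250 bases upstream of the RefSeq transcription start in GRCm38.p6, written 5′ to 3′ on the strand of the gene. Capitals mark GGGCGG, the core of GC boxes, and TATAAA, the core of TATA boxes, each searched on both strands.
Kcnj10, chr1:172340960-172341209, plus strand: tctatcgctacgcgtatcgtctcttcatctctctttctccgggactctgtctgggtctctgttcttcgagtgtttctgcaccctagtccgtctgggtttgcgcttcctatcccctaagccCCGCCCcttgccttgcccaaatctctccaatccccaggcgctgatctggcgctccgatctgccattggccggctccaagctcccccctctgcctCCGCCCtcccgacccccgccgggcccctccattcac
Kcnk12, chr17:87797995-87798244, minus strand: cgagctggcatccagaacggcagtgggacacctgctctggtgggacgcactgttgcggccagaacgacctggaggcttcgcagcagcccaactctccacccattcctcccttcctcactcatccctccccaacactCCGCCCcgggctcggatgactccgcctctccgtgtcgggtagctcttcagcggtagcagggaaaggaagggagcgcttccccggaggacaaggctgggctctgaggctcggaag
Kcnj4, chr15:79505242-79505491, minus strand: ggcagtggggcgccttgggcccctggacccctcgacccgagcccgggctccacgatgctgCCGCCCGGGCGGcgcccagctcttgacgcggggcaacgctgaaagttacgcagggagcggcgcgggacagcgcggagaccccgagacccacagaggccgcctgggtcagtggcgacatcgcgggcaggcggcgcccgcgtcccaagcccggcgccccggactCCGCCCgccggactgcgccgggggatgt
Kcnn3, chr3:89519914-89520163, plus strand: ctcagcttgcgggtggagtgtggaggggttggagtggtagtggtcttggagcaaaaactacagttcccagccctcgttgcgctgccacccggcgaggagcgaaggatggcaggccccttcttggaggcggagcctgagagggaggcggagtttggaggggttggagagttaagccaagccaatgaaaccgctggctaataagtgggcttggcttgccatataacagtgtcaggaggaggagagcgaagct
Kcnj13, chr1:87394730-87394979, minus strand: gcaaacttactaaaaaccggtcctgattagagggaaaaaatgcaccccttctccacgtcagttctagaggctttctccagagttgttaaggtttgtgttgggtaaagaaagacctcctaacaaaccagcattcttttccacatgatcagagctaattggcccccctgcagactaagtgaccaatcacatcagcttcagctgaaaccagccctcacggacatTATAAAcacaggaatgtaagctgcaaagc
Kcnk16, chr14:20269270-20269519, minus strand: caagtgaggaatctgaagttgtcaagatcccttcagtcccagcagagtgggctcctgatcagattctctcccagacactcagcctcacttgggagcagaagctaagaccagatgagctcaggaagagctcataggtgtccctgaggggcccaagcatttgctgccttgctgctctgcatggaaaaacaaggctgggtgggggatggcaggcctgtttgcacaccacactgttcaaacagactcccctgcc
The Kcnj10 window held 2 GC box cores, that of Kcnk12 held 1 and that of Kcnj4 held 3. In the Kcnj13 window a TATA box core began 29 bases upstream of the start. The windows of Kcnn3 and Kcnk16 held neither motif. GC content of these windows was 62.0%, 64.8% and 77.2% for Kcnj10, Kcnk12 and Kcnj4, against 58.8% for Kcnn3, 45.2% for Kcnj13 and 54.8% for Kcnk16.

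RefSeq start sites were found for 33 of the 41 genes, with 42 sites in all. GGGCGG was present in 17 of these 42 windows (40.5%), against 32.7% of all 32851 windows in the table. TATAAA was present in 3 (7.14%), against 12.4%. The median ratio of observed to expected CpG was 0.383 in the channel windows and 0.373 in all windows. It was 0.432 for the 31 windows of genes at 1 RPKM or more, and 0.279 for the 11 windows of genes below that level. Several windows can belong to 1 gene, and a match in these letters describes the window only.

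Kcnj10, on chromosome 1 from 172341210 to 172374085 in GRCm38 (ENSMUSG00000044708), encodes the main inward rectifier of astrocytes, through which these cells take up potassium. It was measured at 49.9, 59.4, 58.9, 60.0 and 59.2 RPKM in mice 7 to 11 (mean 57.5 ± 4.26, SD, n = 5). Mouse 7 was the lowest, and mice 8 to 11 lay between 58.9 and 60.0 RPKM. Kcnj16, whose product joins that of Kcnj10 in mixed channels, was at 11.2, 8.77, 9.94, 8.57 and 6.39 RPKM. Its highest value was in mouse 7, where Kcnj10 was lowest, and its lowest in mouse 11. With the GC content and length trend of each library removed, as described further on, these were no longer its extremes. The log2 CPM deviations of Kcnj16 were then 0.09 in mouse 7 and -0.03 in mouse 11, between -0.14 in mouse 8 and 0.14 in mouse 9. Kcnj10 exceeded Kcnj16 by 4.47-fold to 9.26-fold, with a mean log2 ratio of 2.57 ± 0.35 (SD, n = 5; a pseudocount of 1 RPKM is added in every ratio on this scale). The summed astrocyte markers were at 719 RPKM in mouse 11 and between 753 and 853 RPKM in the other mice. Members of this list went both ways. Slc1a2, at 213 RPKM, and Aqp4 were lowest in mouse 11, while Aldoc, at 311 RPKM, Aldh1l1 and Sox9 were highest there. The part of these markers in the Kcnj10 and Kcnj16 levels was not tested. Aqp4, the water channel of astrocyte end feet that lies beside Kcnj10 channels, was at 42.7, 27.3, 23.1, 25.2 and 13.7 RPKM. Its highest value was in mouse 7, where Kcnj10 was lowest.

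Other inward rectifiers of transporting cells were low. Kcnj13, known from choroid plexus and retinal pigment epithelium, was at 1.87, 2.46, 1.41, 1.82 and 1.14 RPKM. Summed choroid plexus markers, led by Ttr, were at 536 RPKM in mouse 11 and between 345 and 439 RPKM in the other mice. Mouse 11 thus had the lowest Kcnj13 and the highest choroid plexus sum, and how far the second bears on the first was not tested. Kcnj13 shares 623 exon bases on the opposite strand with Gigyf2, which had a mean of 1140 counts, and without a stated strand setting their reads cannot be told apart. Kcnj1, the potassium secretion channel of the kidney tubule, and Kcnj15, also known from kidney, had no counts in any library, which allows up to 3 counts per library, or 0.0585 RPKM and 0.0309 RPKM in the shallowest one. Marker genes of kidney, pancreas, liver and heart summed to between 1.26 and 3.61 RPKM, with Umod and Ins1 at 0.

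The strong inward rectifiers, which hold the resting potential near the potassium equilibrium, were led by Kcnj4, a channel of forebrain neurons (chromosome 15 from 79483714 to 79505241). Its level was 32.1, 24.9, 30.6, 33.9 and 54.5 RPKM in mice 7 to 11. Mouse 11 lay above the other mice, at 1.79 times their mean, and the mean was 35.2 ± 11.3 RPKM with mouse 11 (SD, n = 5) and 30.4 ± 3.90 RPKM without it (SD, n = 4). Kcnj2 was at 4.78, 6.75, 6.73, 7.74 and 4.71 RPKM, low in both mouse 7 and mouse 11. Kcnj12 was at 5.14, 4.02, 4.39, 5.94 and 6.66 RPKM and overlapped Kcnj2. Their log2 ratio, Kcnj12 over Kcnj2, was -0.19 ± 0.44 with an exact two-sided p = 0.375, whereas Kcnj4 over Kcnj2 was 2.31 ± 0.61 and above 0 in every mouse (2.07 without mouse 11). Kcnj12 over Kcnj2 was -0.35 without mouse 11 (exact two-sided p = 0.25). Kcnj14, the remaining strong rectifier, had 7 to 24 counts, with a level between 0.168 and 0.483 RPKM.

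The G protein-gated inward rectifiers, which open when inhibitory receptors release G protein beta-gamma subunits, summed to 43.3, 43.1, 44.9, 43.5 and 43.7 RPKM. That sum was even across mice although its main members were not. Kcnj3 was at 22.4, 22.3, 23.2, 21.1 and 16.4 RPKM, with a mean of 21.1 ± 2.70 RPKM with mouse 11 (n = 5) and 22.3 ± 0.848 RPKM without it (SD, n = 4). Kcnj9 was at 15.1, 14.1, 14.6, 15.8 and 22.1 RPKM, with a mean of 16.3 ± 3.30 RPKM with mouse 11 and 14.9 ± 0.740 RPKM without it. Mouse 11 had the lowest Kcnj3 and the highest Kcnj9, and both values lay outside the range of the other mice. The GC contents of their transcripts are 43.9% and 57.2%, and their log2 CPM deviations in mouse 11 were -0.29 and 0.52. With the GC content and length trend of each library removed, as described further on, both deviations were 0.08. The log2 ratio of Kcnj3 to Kcnj9 was -0.41 in mouse 11, against 0.54, 0.63, 0.63 and 0.39 in mice 7 to 10, and its mean was 0.36 ± 0.44 with mouse 11 and 0.55 without it. Kcnj6, the subunit best known from dopamine neurons, was at 5.35, 6.11, 6.58, 6.14 and 4.68 RPKM. It lay below both partners in each mouse, with log2 ratios of 1.704 ± 0.107 for Kcnj3 over Kcnj6 and 1.35 ± 0.40 for Kcnj9 over Kcnj6 (1.18 without mouse 11). Markers of monoaminergic nuclei, which include dopamine neurons, summed to between 8.11 and 38.1 RPKM, and their part in the Kcnj6 level was not tested. Kcnj5, the partner of Kcnj3 in the heart, was at 0.439 to 0.607 RPKM, and Kcnj3 exceeded it by 36.8-fold to 47.6-fold.

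ATP-sensitive channels couple excitability to metabolism and need a sulfonylurea receptor beside the pore. Kcnj11, the pore of neurons and pancreatic beta cells, was at 13.4, 12.4, 12.5, 12.9 and 17.8 RPKM. Mouse 11 stood above the other 4, which lay close together, and the mean was 13.8 ± 2.28 RPKM with it and 12.8 ± 0.473 RPKM without it. Kcnj8, the pore of vascular mural cells, was even at 1.92, 1.48, 1.503, 1.42 and 1.59 RPKM. Kcnj11 exceeded it by 7.0-fold to 11.2-fold, with a log2 ratio of 2.51 ± 0.21 (1.06 with the exon lengths of M21). The receptor Abcc8, partner of Kcnj11, was at 7.38, 6.19, 7.58, 6.43 and 6.88 RPKM. Abcc8 was at 0.387 to 0.608 times the Kcnj11 level, and the receptor Abcc9 was at 1.18 to 1.84 times the level of its pore Kcnj8. Abcc9 itself was at 2.396, 2.16, 2.77, 1.87 and 1.88 RPKM. The pore was the higher in the Kcnj11 pair and the receptor in the Kcnj8 pair, in 5 of 5 mice each. The mural cell markers summed to between 78.2 and 89.4 RPKM. The Kcnj11 level rests on a length of 1173 bases, against 3677 bases of M21 exons, with which its mean was 4.40 RPKM and the log2 ratio of Abcc8 to Kcnj11 was -0.04 (exact two-sided p = 0.75), against -0.90 ± 0.22 with the length used.

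Among two-pore channels the weakly rectifying TWIK channel Kcnk1, on chromosome 8 from 125995170 to 126030685, was the most abundant. Its level was 31.4, 44.8, 50.02, 48.7 and 58.9 RPKM in mice 7 to 11 (mean 46.7 ± 10.02, SD, n = 5). Mouse 7 was the lowest and mouse 11 the highest. Kcnk6, its relative, was at 0.775 to 1.43 RPKM, and Kcnk7, which gives no current alone in expression systems, had 1 to 8 counts per library.

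The TREK group responds to stretch, lipids and heat. Kcnk2 was at 14.8, 15.5, 20.4, 17.2 and 20.4 RPKM, with mice 9 and 11 highest. Kcnk4 was at 4.61, 3.37, 3.98, 4.91 and 7.29 RPKM, highest in mouse 11 (mean 4.83 ± 1.49 RPKM with it and 4.22 ± 0.683 RPKM without it), and it shares 587 exon bases on the same strand with Catsperz (mean 45.6 counts). Kcnk10 was at 2.26, 1.74, 1.89, 2.46 and 1.03 RPKM, lowest in mouse 11 (mean 1.88 ± 0.552 RPKM with it and 2.09 ± 0.3295 RPKM without it). Both Kcnk4 and Kcnk10 lay below Kcnk2 in every mouse, with log2 ratios of 1.701 ± 0.302 for Kcnk2 over Kcnk4 and 2.71 ± 0.45 for Kcnk2 over Kcnk10 (2.72 and 3.59 with the exon lengths of M21). Kcnk1 over Kcnk2 gave 1.34 ± 0.19.

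The TASK channels are closed by acid outside the cell and by transmitters acting through Gq-coupled receptors. Kcnk9 was at 26.1, 18.1, 21.3, 22.2 and 16.1 RPKM, highest in mouse 7 and lowest in mouse 11. Kcnk3 was at 5.40, 5.65, 5.44, 6.07 and 10.05 RPKM. Mouse 11 lay apart at 1.78 times the mean of the others, and the mean was 6.52 ± 1.99 RPKM with it and 5.64 ± 0.304 RPKM without it. Kcnk3 was at 0.207 to 0.623 times the Kcnk9 level, a log2 ratio of -1.55 ± 0.55 that was below 0 in 5 of 5 mice and -1.78 without mouse 11. This order turned with the length used: Kcnk9 has 1209 bases in the deposited RPKM and 12300 bases of M21 exons, and with the second the log2 ratio was 1.28. If reads were counted over the 1209 bases only, the M21 length understates Kcnk9, and the turn comes from unlike annotations. Kcnk3 also shares 229 exon bases on the opposite strand with Gm9899 (mean 208 counts). Kcnk15, the member of the group that gives no current alone, had 1 to 7 counts per library.

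The THIK channels, inhibited by halothane, include Kcnk13, known in microglia as the channel behind their resting potential. Kcnk13 was at 3.08, 3.53, 3.16, 4.29 and 3.52 RPKM. The microglia markers summed to between 204 and 249 RPKM in the 5 mice. Kcnk12, which gives little current alone, was at 2.03, 2.35, 1.71, 2.64 and 6.01 RPKM from 61, 70, 52, 82 and 218 counts. It was 2.76 times the mean of the other 4 mice in mouse 11, the highest such ratio among members tested, and its mean was 2.95 ± 1.75 RPKM with mouse 11 and 2.18 ± 0.4002 RPKM without it. Kcnk12 over Kcnk13 was positive in mouse 11 (0.63) and negative in the other mice, with a mean of -0.28 ± 0.52 and an exact two-sided p = 0.375, and a mean of -0.50 without mouse 11 (exact two-sided p = 0.125, the smallest that 4 mice allow). Of the remaining two-pore channels, the alkaline-activated Kcnk5 was at 0.167 to 0.456 RPKM, and Kcnk16, known from pancreas, had no counts, which allows up to 3 per library or 0.0820 RPKM in the shallowest. Kcnk18, the channel of sensory ganglion neurons, had 4, 2, 2, 0 and 0 counts.

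Kcnma1, the pore of the BK channel that repolarizes neurons when voltage and calcium rise together (chromosome 14 from 23289431 to 24014491), was at 24.4, 17.4, 19.6, 17.8 and 11.4 RPKM. Mouse 7 was the highest and mouse 11 the lowest, and the mean was 18.1 ± 4.66 RPKM with mouse 11 and 19.8 ± 3.21 RPKM without it. Its length was 6513 bases in the deposited RPKM and 16976 bases of M21 exons. Kcnmb4, the beta subunit of neurons, was at 2.75, 2.85, 3.32, 3.53 and 4.10 RPKM, the reverse of the Kcnma1 order at both ends. The ratio of Kcnmb4 to Kcnma1 lay between 0.113 and 0.359, with a log2 value of -2.12 ± 0.53 (-2.33 without mouse 11, and -0.86 with the exon lengths of M21). Kcnmb2, the beta subunit that inactivates the channel, was at 1.38, 1.83, 1.59, 0.777 and 0.615 RPKM (mean 1.24 ± 0.523 RPKM with mouse 11 and 1.39 ± 0.4502 RPKM without it) and lay below Kcnmb4 in each mouse (log2 ratio of Kcnmb4 over Kcnmb2 0.97 ± 0.51, and 0.80 without mouse 11). Kcnmb1, the smooth muscle beta subunit, was at 0.259 to 0.512 RPKM, and Kcnmb3 had 0, 0, 0, 2 and 2 counts. Of the gamma subunits, which shift the voltage range of BK channels, Lrrc55 was the highest at 5.39 ± 0.476 RPKM (SD, n = 5), and Lrrc38 and Lrrc52 averaged 1.2 and 0.8 counts.

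The small conductance channels, which open through bound calmodulin and produce the afterhyperpolarization, were close to one another. Kcnn3 was at 5.04, 4.38, 4.99, 4.56 and 3.24 RPKM. Kcnn2 was at 3.12, 3.59, 5.21, 4.60 and 4.47 RPKM. Kcnn1 was at 3.22, 2.98, 3.23, 3.98 and 4.52 RPKM. All 3 ranges overlapped. The log2 ratio was 0.18 ± 0.24 for Kcnn2 over Kcnn1 (exact two-sided p = 0.25) and -0.07 ± 0.34 for Kcnn2 over Kcnn3 (exact two-sided p = 0.75), and the second turned to 0.0497 without mouse 7. With the exon lengths of M21, Kcnn2 over Kcnn1 was 0.29 and above 0 in 5 of 5 mice (exact two-sided p = 0.0625). Kcnn4, the intermediate conductance channel of blood and immune cells, had 4, 6, 4, 2 and 15 counts, highest in mouse 11. Blood cell markers summed to 209 RPKM in mouse 11 and to between 64.4 and 185 RPKM in the other mice. Hba-a1, Hba-a2 and Hbb-bs were highest in mouse 11, while Hbb-bt, Alas2 and Slc4a1 were highest in mouse 8. The part of these markers in the Kcnn4 counts was not tested. The 3 calmodulin genes summed to between 1566 and 1741 RPKM, with Calm2 highest at 661 ± 93.4 RPKM.

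Of the sodium-activated channels, Kcnt1 was at 19.2, 16.7, 17.5, 17.5 and 20.1 RPKM. Its lowest value was in mouse 8 and its highest in mouse 11. Kcnt2 was at 6.37, 3.44, 3.63, 3.90 and 3.06 RPKM. Mouse 7 stood above the other mice, which lay close together. Kcnt1 exceeded Kcnt2 by 3.02-fold to 6.58-fold (log2 ratio 1.95 ± 0.33). Kcnu1, the pH-sensitive potassium channel of sperm, had 31 to 40 counts in every library and a level of 0.577 ± 0.0290 RPKM. Its SD of log2 CPM, 0.09, was the smallest among the members tested. At counts this low a small SD cannot be read as a steady level. With the GC content and length trend of each library removed, the SD was 0.21.

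In all, 23 pairs of genes were compared by the log2 ratio of their levels. The sign was the same in 5 of 5 mice for 18 pairs, above 0 for 13 and below 0 for 5, and mixed for the other 5. Each of the 18 had an exact two-sided sign-flip permutation p of 0.0625, which is the smallest that 5 mice allow, and 0.0799 after Benjamini-Hochberg adjustment over the 23 pairs, so none could pass 0.05. The mixed pairs were Kcnj3/Kcnj9 (exact p = 0.188, adjusted 0.227), Kcnj12/Kcnj2, Kcnk12/Kcnk13, Kcnn2/Kcnn1 and Kcnn2/Kcnn3. In order of mean level, 37 pairs of neighbouring genes were formed, and the ranges of the mice overlapped in 34. The 3 steps without overlap were Kcnj4 over Kcnj3, Kcnj11 over Kcnj16 and Kcnk6 over Kcnu1. With the exon lengths of M21 the second step turned, at 4.40 RPKM for Kcnj11 and 8.96 RPKM for Kcnj16. Among the 5 leading genes, Kcnj10 exceeded Kcnk1 in 5 of 5 mice although their ranges overlapped, and Kcnk1 exceeded Kcnj4 in 4 of 5.

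**Figure D2:**
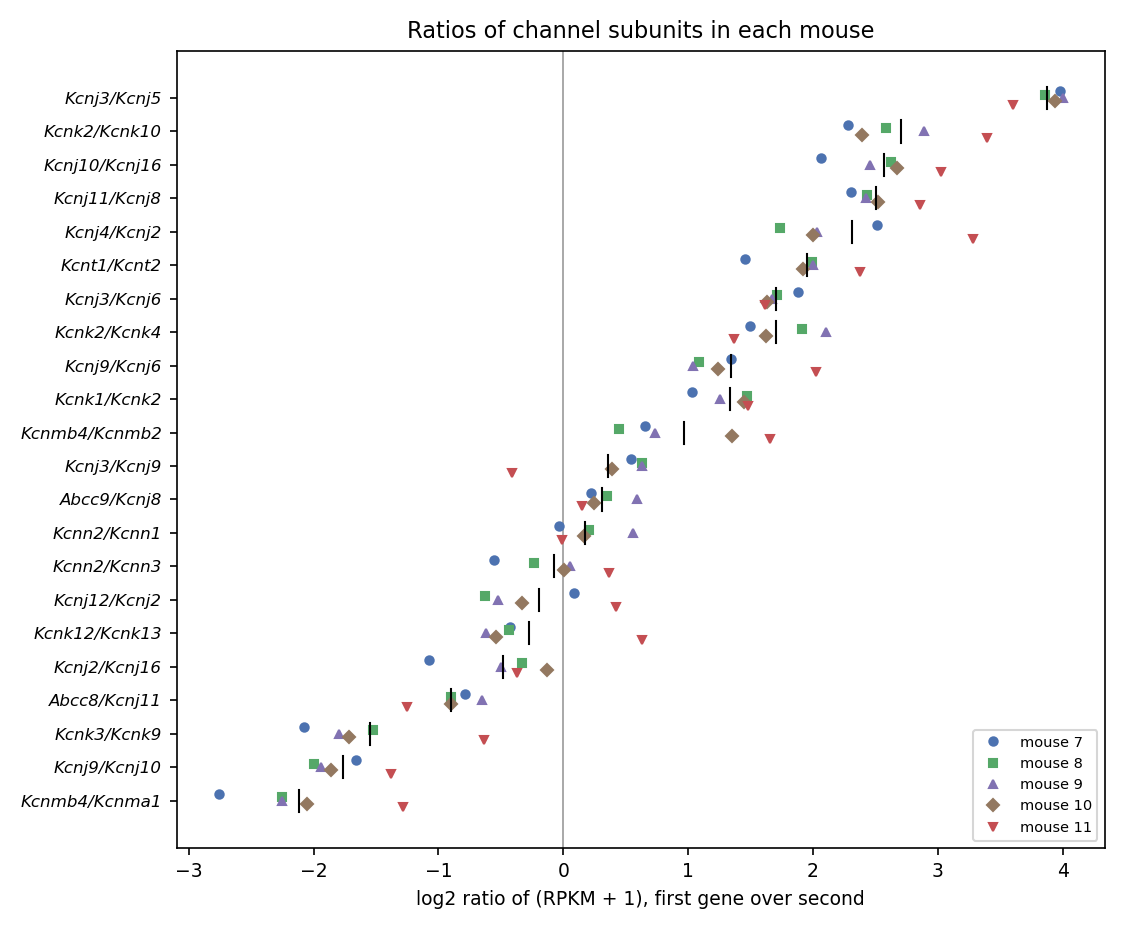
Log2 ratio of (RPKM + 1), first gene over second, for 22 of the 23 pairs (Kcnj6/Kcnj15 is left out because Kcnj15 had no counts), with 1 marker per mouse and the mean as a vertical line. Mouse 11 lies across 0 from the other mice for Kcnj3/Kcnj9 and Kcnk12/Kcnk13, and the Kcnn2 ratios straddle 0.

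Variation between mice was tested across all genes with edgeR quasi-likelihood fits after TMM scaling, which sets the typical gene level equal between libraries. The test asks whether a gene varies more between mice than genes of like mean level in the same libraries. A gene that was not called is therefore not shown to be even across mice. No member was called at an adjusted p under 0.05 (0 of 33 tested, background 0% of 16318 genes), with adjusted edgeR p-values between 0.9805 and 0.9996. The remaining 8 members had a mean count under 10 and were not tested. At an unadjusted p under 0.05, 1 member passed, Kcnk12, against a background of 4.82% of genes. DESeq2 marked 0 of the 33 members as dispersion outliers, against 0.3% of genes. Without a filter on counts, 0 of 38 members were called by edgeR, against 0.812% of 28335 genes. The median SD of log2 CPM was 0.31 for the members tested and 0.30 for all genes tested, and their median levels were 4.44 and 4.59 RPKM. The SD ranged from 0.09 for Kcnu1 to 0.72 for Kcnk12. By Dixon's criterion for 5 values, 1 mouse lay far from the other 4 for 5 members (background 11.2%), and this was mouse 11 for 3 of them, Kcnj9, Kcnj11 and Kcnk3 (background 8.48%).

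**Figure D3:**
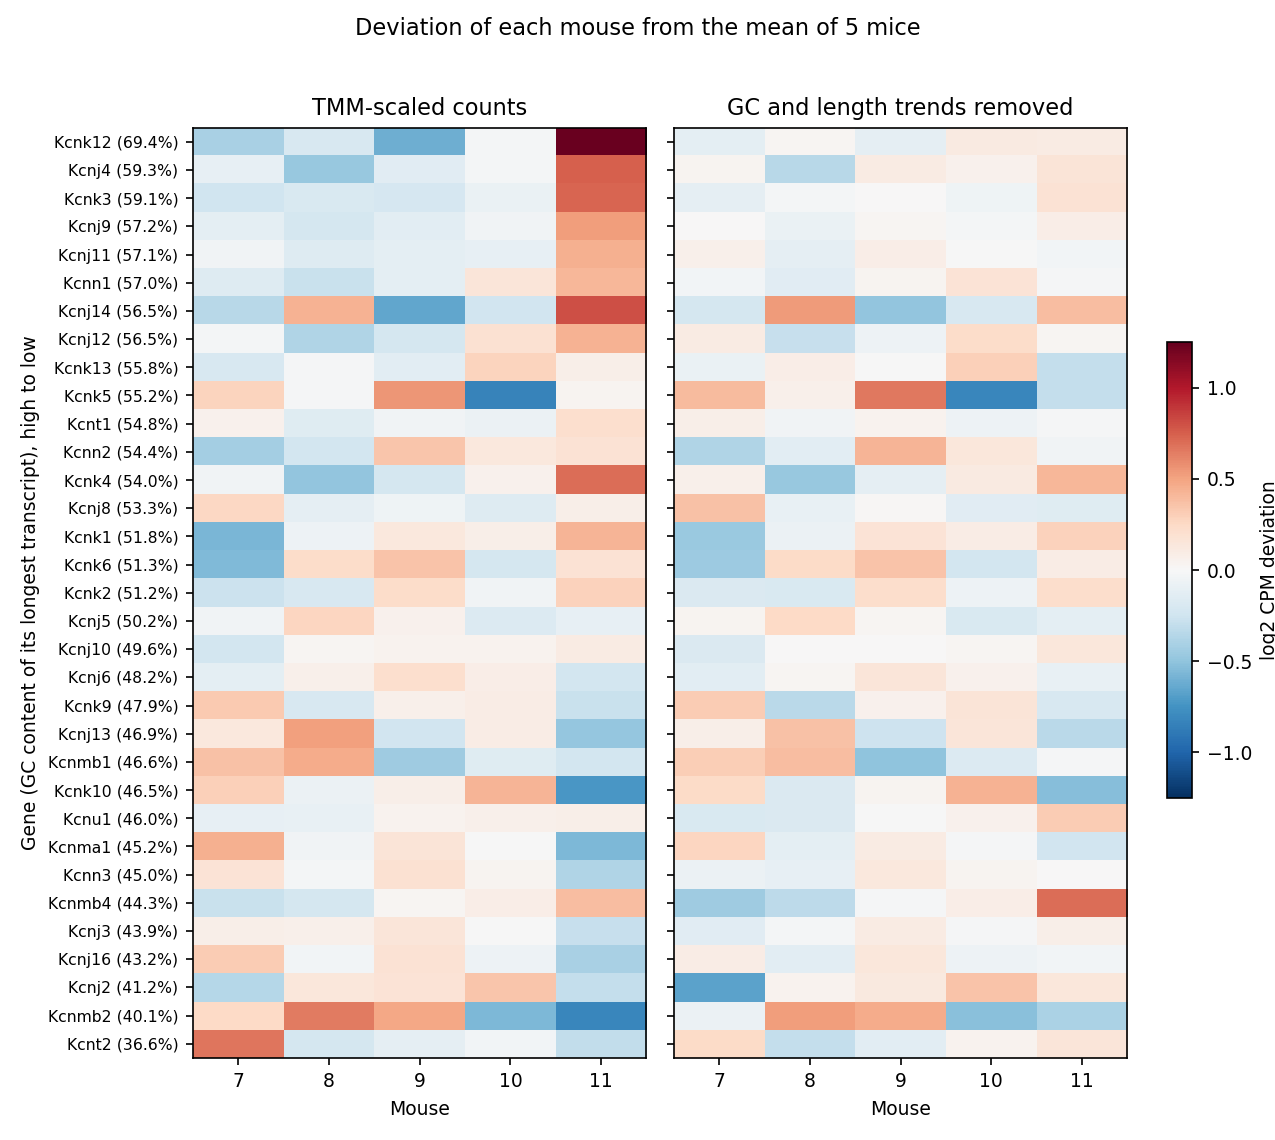
Deviation of each mouse from the mean of 5 mice in log2 CPM for the 33 genes tested, in order of GC content from high (top) to low, as TMM-scaled counts (left) and with the GC content and length trends of each library removed (right). At left, mouse 11 is red at the top and blue at the bottom, with Kcnk12 at 1.23 and Kcnmb2 at -0.81. At right this gradient is no longer seen, which the removal of a fitted GC trend largely sets in advance.

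Mouse 11 had the highest value of 15 of the 33 genes (45.5%, background 37.6%) and the lowest of 10 (30.3%, background 32.7%). Its largest deviations were 1.23 for Kcnk12, 0.80 for Kcnj14, 0.74 for Kcnj4, 0.73 for Kcnk3 and 0.70 for Kcnk4 on the log2 CPM scale. At the other end were Kcnmb2 at -0.81, Kcnk10 at -0.73, Kcnma1 at -0.56 and Kcnj13 at -0.49. The GC content of the longest transcript was 69.4% for Kcnk12 and 59.3% for Kcnj4, against 40.1% for Kcnmb2 and 45.2% for Kcnma1. Across the 33 genes, the correlation of GC content with the deviation was 0.83 in mouse 11, against -0.50, -0.39, -0.47 and -0.07 in mice 7 to 10. All genes share the same 5 libraries, and the deviations of the mice sum to 0, so these values are a description. Of the 16 genes above the median GC content of 51.2%, 16 were above their mean in mouse 11, and of the 17 at or below it, 4 were. Across 16264 genes the correlation in mouse 11 was 0.64, so the direction of this split is not particular to the channel genes. No share over all genes is given for these counts.

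With the GC content and length trend of each library removed, the correlation across members in mouse 11 was 0.10. The trends were fitted to these same libraries across the genes tested, so a fall in this correlation was largely set in advance. The deviation of Kcnk12 in mouse 11 was then 0.10, that of Kcnj4 0.16 and that of Kcnk3 0.18. Those of Kcnj9 and Kcnj11 were 0.08 and -0.04. For 26 of the 33 genes the deviation of mouse 11 was smaller in size than before, which removing a fitted trend favours. No share over all genes is given for this count. Mouse 11 then had the highest value of 8 genes (background 30.3%) and the lowest of 5 (background 25.5%). Some genes kept a deviation in mouse 11: Kcnk10 at -0.53, Kcnmb2 at -0.40 and Kcnk4 at 0.42, and for Kcnmb4 it became larger, 0.70 against 0.38 before. The median SD of log2 CPM was 0.21 for members and 0.23 for all genes after this step.

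**Figure D4:**
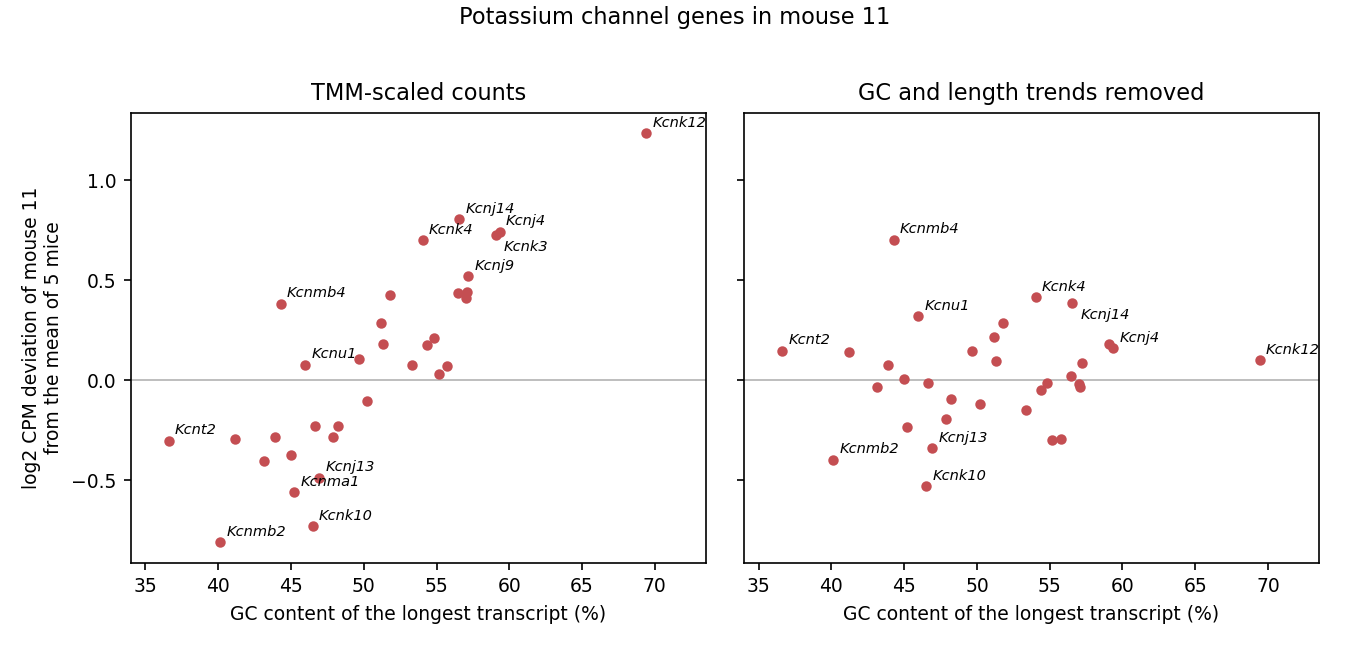
Deviation of mouse 11 from the mean of 5 mice in log2 CPM against the GC content of the longest transcript in percent, 1 point per gene for 33 genes, as TMM-scaled counts (left) and with GC content and length trends removed (right). At left the points run from Kcnmb2 at -0.81 to Kcnk12 at 1.23 with a correlation of 0.83. At right the correlation is 0.10, a fall that the removal of a fitted GC trend largely sets in advance, and Kcnmb4 is highest at 0.70.

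Mouse 7 was lowest for 10 of the 33 genes (30.3%, near the background of 25.4%), among them Kcnk1 with a deviation of -0.57 and Kcnk6 with -0.55. It lay above the mean for Kcnt2 (0.67) and Kcnma1 (0.45), whose transcripts have GC contents of 36.6% and 45.2%. With the GC content and length trends removed, the deviations in mouse 7 were -0.47 for Kcnk1 and -0.45 for Kcnk6. Those of Kcnt2 and Kcnma1 were then 0.24 and 0.27.

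Of the 41 genes, 15 lie within 500 kb of another member or of a sulfonylurea receptor gene, in 9 pairs. Kcnj9 and Kcnj10 on chromosome 1 are transcribed away from each other and are separated by 11.9 kb. The neuronal gene was the lower: Kcnj9 over Kcnj10 had a log2 ratio of -1.77 ± 0.25. Mouse 11 had the highest Kcnj9, while its Kcnj10 level lay within the range of the other mice. Kcnj16 and Kcnj2 on chromosome 11 are 38.2 kb apart on the same strand, with Kcnj2 below Kcnj16 in 5 of 5 mice (log2 ratio of Kcnj2 over Kcnj16 -0.48 ± 0.36). Kcnj6 and Kcnj15 on chromosome 16 are 259.9 kb apart, and Kcnj6 was at least 175-fold above the level that 3 counts of Kcnj15 per library would give. Kcnj11 and Abcc8 on chromosome 7 are 3.76 kb apart, and Kcnj8 and Abcc9 on chromosome 6 are 16.2 kb apart, so each pore lies next to the gene of its receptor. Kcnj5 and Kcnj1 on chromosome 9 are 28.1 kb apart, with a low level and no counts.

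Genes that act with these channels were read from lists of partners. Across 23 marker and partner lists, 0 of the 143 tested genes were called variable by edgeR. At an unadjusted edgeR p under 0.05 were 22 (15.4%), against 4.82% of all genes tested. Most of these were in cell and region lists, with 6 for monoaminergic nuclei, 5 for cerebellum and 4 for blood cells. Of the partner lists, that of astrocytic potassium and water handling held 1, Aqp4, and the others held 0. The 10 G protein beta and gamma subunit genes summed to between 474 and 607 RPKM, with Gnb1 highest at 212 ± 18.9 RPKM and Gnb3 lowest at 0.248 ± 0.194 RPKM. Of 16 inhibitory receptors that open G protein-gated channels, Gabbr1, a GABA-B receptor subunit, was highest at 122 ± 14.6 RPKM, and Oprm1, the mu opioid receptor, lowest at 0.577 ± 0.183 RPKM. Genes of astrocytic potassium and water handling summed to between 762 and 862 RPKM, with Slc1a2, a glutamate transporter, highest at 305 ± 55.7 RPKM. General neuronal markers summed to 863 RPKM in mouse 11 and to between 922 and 957 RPKM in the other mice. Snap25, Syt1, Stmn2 and Nefl were lowest in mouse 11, while Rbfox3, at 45.4 RPKM, and Eno2, at 257.1 RPKM, were highest there. Excitatory neuron markers summed to 1032 RPKM in mouse 11 and to between 636 and 764 RPKM in the other mice. Slc17a7 and Camk2a carried this sum, at 519.8 and 432.0 RPKM in mouse 11, while Slc17a6 was lowest in mouse 11, at 8.46 RPKM against 12.7 to 20.8 RPKM in the other mice. Inhibitory neuron markers summed to 522 RPKM in mouse 11 and to between 355 and 422 RPKM in the other mice. Sst was at 279.9 RPKM in mouse 11 and at 129 to 171 RPKM in the other mice, while Gad2, at 38.9 RPKM, and Vip, at 9.06 RPKM, were lowest in mouse 11, so members of both lists went both ways. Their part in the mouse 11 levels of Kcnj4, Kcnj9 and Kcnk3 was not tested.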

How the data were processed

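Libraries of total RNA from the brain of 5 male mice were made with a multiplexed mRNA kit, as the protocols in the labels say. Counts per gene, in whole numbers, and RPKM values were deposited. The submitters' processing notes name CASAVA 1.7, STAR 2.4.1d, featureCounts 1.4.6-p4 and GRCm38; the roles, annotation release and strand setting are not given in the sources used here. For 12729 of 12729 genes checked (at least 30 counts and 0.3 RPKM in every library), the deposited RPKM within 1% had been divided by the 5 library totals taken in turn down the table, and for 0 genes by each library's own total. RPKM were therefore recomputed with own totals and the gene length implied by the deposited values (38 members; M21 exon length for the 3 without counts; 22 lengths were within 1% of M21). Unmatched identifiers held 0.0770% of counts. All pairs of libraries differed beyond counting error (chi-square per gene 6.56 to 91.8), so 5 samples were kept. A count of 0 allows up to 3 counts; this limit covers counting error only.

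The labels give 1 group, so the tests were of variation between mice and of gene pairs. Variation was tested in edgeR 4.0.16 (quasi-likelihood intercept fit, TMM scaling) for the 16318 genes whose counts averaged 10 or more. Dispersions were set against an F distribution that limma 3.58.1 fitted robustly along the mean level, and p-values were Benjamini-Hochberg adjusted over all genes, with a threshold of 0.05. DESeq2 1.42.0 was an alternative. Log2 CPM used a prior count of 1. Pairs were compared by log2 of RPKM + 1 in exact two-sided sign-flip permutation tests. A mouse was taken as far from the others where its gap exceeded 0.71 of the range (Dixon's criterion). Trends of GC content and length were removed per library with spline fits. Per-mouse values are given for members at 5 RPKM or more, for members with 1 mouse far from the others and for genes of the pairs. Of partner lists, the highest and lowest genes are named, apart from 1 that is not reported here. Promoters come from the RefSeq table (GRCm38.p6). Members, pairs and lists were chosen with earlier results of these data known. The cell and region lists were neurons, excitatory and inhibitory neurons, astrocytes, oligodendrocytes and their precursors, microglia, endothelium, mural cells, choroid plexus, ependyma, cerebellum, monoaminergic nuclei, striatum, hypothalamus, blood cells and other organs. Alternatives were other scalings, count filters, RPKM as deposited, annotation lengths, pseudocounts and leaving out each mouse; counts of members highest or lowest in mouse 11 and means of single members were added after the data were seen.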

Additional observations from a re-analysis of the deposited data

Results flagged for a closer look

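In 5 of the 33 genes tested, 1 mouse lay far from the other 4 in log2 CPM by Dixon's criterion, against 11.2% of all genes tested; chance alone gives about 1 in 20. Kcnj9 was highest in mouse 11, with a deviation of 0.52 from the mean of 5 mice. Kcnj11 was highest in mouse 11 by 0.44. Kcnk3 was highest in mouse 11 by 0.73. Their transcripts have GC contents of 57.2%, 57.1% and 59.1%, and with the GC content and length trends removed the deviations were 0.08, -0.04 and 0.18. Kcnt2 was highest in mouse 7 by 0.67, and Kcnj10 was lowest in mouse 7, with a deviation of -0.23 (-0.225 to 3 digits). With the trends removed, the deviations in mouse 7 were 0.24 for Kcnt2 and -0.18 for Kcnj10. Mouse 11 was the sample apart for 3 of the 33 genes, close to the share of 8.48% of all genes.

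Among the gene pairs, the log2 ratio of Kcnj3 to Kcnj9 was -0.41 in mouse 11, below the values of 0.39 to 0.63 in the other mice. The log2 ratio of Kcnk12 to Kcnk13 was 0.63 in mouse 11, above 0, while it was below 0 in the other mice. With the GC content and length trends removed, the log2 CPM deviations in mouse 11 were 0.08 for Kcnj3 and 0.08 for Kcnj9. Those of Kcnk12 and Kcnk13 were 0.10 and -0.29.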

How the results depend on the processing

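With 5 libraries of 15392006 counts or more and 1 group, the depth left 8 members untested, and the smallest possible p of a pair was 0.0625 (0.125 with 4 mice). No paired analysis was possible because the labels give a single group. No member was called variable by edgeR under the scalings and filters tried, without any 1 mouse, or by DESeq2 (1 at an unadjusted p under 0.05 in the edgeR fit as reported); of all genes, 0 were called as reported, 230 with no filter on counts and 49 as DESeq2 dispersion outliers. With the exon lengths of the annotation, the log2 ratio of Kcnk3 to Kcnk9 reversed to 1.28, that of Abcc8 to Kcnj11 was -0.04, that of Kcnj11 to Kcnj8 was 1.06, that of Kcnn2 to Kcnn1 was 0.29 with 1 sign in all mice, the two-pore channels summed to 84.8 RPKM and the BK pore to 6.95 RPKM; these lengths also moved the means of Kcnk9 (2.04 RPKM), Kcnma1 (6.95 RPKM), Kcnj11 (4.40 RPKM), Kcnj6 (4.39 RPKM), Kcnk4 (1.86 RPKM) and Kcnk10 (0.542 RPKM). Without each mouse in turn, the log2 ratio of Kcnn2 to Kcnn3 lay between -0.18 and 0.0497. With the GC content and length trends removed, the deviation of Kcnj11 in mouse 11 reversed to -0.036, and the numbers of genes highest and lowest in mouse 11 were 8 and 5, against 15 and 10. The cause of the changes was not tested, except that the length changes follow from the lengths. If reads were counted over the deposited lengths, which is not stated, the longer M21 lengths understate these levels. Because no pair could pass 0.05 with 5 or 4 mice, the p-values cannot show the stability of a pair. A pair that kept its direction under an alternative shows only that its sign did not depend on that choice.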

Other observations

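Summed marker levels of other cell types and regions also varied between mice. Cerebellar markers summed to between 33.6 and 65.6 RPKM and hypothalamic markers to between 10.2 and 51.9 RPKM. Among the cerebellar markers, Gabra6 had no counts in mice 9 and 11 and was at 3.18 RPKM in mouse 10, and Cbln3 had no counts in mouse 9 and was at 5.16 RPKM in mouse 10. Striatal markers summed to between 228 and 359 RPKM, oligodendrocyte markers to between 703 and 964 RPKM and markers of their precursors to between 23.4 and 33.3 RPKM. Endothelial markers summed to between 65.3 and 98.7 RPKM and ependymal markers to between 7.76 and 12.4 RPKM.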
